A study of Rattus norvegicus with 35 samples.

Results

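Nrf2, the transcription factor encoded by Nfe2l2, its sensor Keap1 and 7 of its antioxidant target genes (Nqo1, Hmox1, Gclc, Gclm, Txnrd1, Srxn1 and Slc7a11) were followed in the mammary gland of young rats. All probes whose gene name in the scanner files matched one of these 9 genes were taken, once a suffix marking a predicted or mapped name had been removed. This gave 13 of the 41012 probes on the array, 1 for each gene except Txnrd1 with 4 and Srxn1 with 2. Probes were matched to genes by name.

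In unstressed cells Keap1 holds Nrf2 in the cytoplasm and hands it to the Cul3 ubiquitin ligase, so that Nrf2 is degraded as fast as it is made. Oxidants and electrophiles modify cysteines of Keap1, Nrf2 then accumulates, pairs with a small Maf protein and binds antioxidant response elements near genes of glutathione synthesis, thioredoxin recycling and quinone and haem breakdown. Since this control acts mainly on the protein, mRNA of the target genes is the usual readout of the pathway.

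The glands came from female Sprague-Dawley offspring at postnatal day 21, whose mothers had been dosed from gestational day 10 to 21, and each of 7 groups had 5 arrays with RNA of the left abdominal gland. The BPA250+genistein, BPA250+I3C and BPA250 groups shared maternal gavage with 250 µg of the plasticiser bisphenol A (BPA) per kg body weight a day, and the BPA25+genistein, BPA25+I3C and BPA25 groups had 25 µg/kg a day. Genistein, a soy isoflavone, was given in chow at 250 mg/kg (about 5.5 mg/kg a day), and I3C (indole-3-carbinol, from cruciferous vegetables) at 2000 mg/kg chow (about 45.0 mg/kg a day). The labels call the remaining group the negative control, and no group had a diet without BPA, so each diet was compared at a fixed BPA dose. The diet groups were also compared with the control group, and there diet and BPA cannot be told apart. The litters behind single arrays are not given in the labels, and p-values measure the spread between these 35 glands.

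The sequences of the probes that matter for the results are shown here from the array files, 5′ to 3′, with G and C in capitals.
Gclm A_44_P1011898: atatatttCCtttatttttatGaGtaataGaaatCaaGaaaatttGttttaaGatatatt
Nfe2l2 A_43_P14931: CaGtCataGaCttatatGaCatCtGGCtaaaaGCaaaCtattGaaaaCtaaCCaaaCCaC
Hmox1 A_43_P11472: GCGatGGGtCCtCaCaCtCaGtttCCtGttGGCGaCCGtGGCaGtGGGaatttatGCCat
Srxn1 A_42_P703664: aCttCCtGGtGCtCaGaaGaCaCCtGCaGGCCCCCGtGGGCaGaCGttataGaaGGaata
Srxn1 A_44_P470619: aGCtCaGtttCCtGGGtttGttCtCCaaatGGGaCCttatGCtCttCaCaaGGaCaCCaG
Txnrd1 A_44_P456738: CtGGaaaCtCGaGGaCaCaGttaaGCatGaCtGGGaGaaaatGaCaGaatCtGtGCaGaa
Txnrd1 A_44_P554454: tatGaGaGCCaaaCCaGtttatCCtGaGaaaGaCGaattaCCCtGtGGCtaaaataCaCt
Txnrd1 A_44_P134070: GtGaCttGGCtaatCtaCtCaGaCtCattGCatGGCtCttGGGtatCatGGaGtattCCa
Txnrd1 A_44_P427702: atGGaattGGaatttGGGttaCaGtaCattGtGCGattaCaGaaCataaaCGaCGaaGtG
The only Gclm probe has 9 G or C in 60 bases (15.0%), and just 0.0390% of all probes on the array have a share that low, against a median of 43.3%. The Hmox1 probe has 55.0%, and the Nfe2l2, Gclc and Slc7a11 probes have 35% each.

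On the rn3 build that the array files use, the Gclm probe lies at chr2:218878277-218878336, the Nfe2l2 probe at chr3:58263174-58263233 and the Hmox1 probe at chr19:13974162-13974221. Both Srxn1 probes lie on chromosome 3, A_42_P703664 at chr3:142366129-142366188 and A_44_P470619 at chr3:142366018-142373772, a span of 7755 bases for a probe of 60, so its sequence is split by skipped genome. The Txnrd1 probes lie on chromosome 7, and A_44_P456738 is likewise split over chr7:23093333-23095211. The probe A_44_P427702 at chr7:23075875-23075934 was designed from an expressed sequence tag and runs on the plus strand, whereas the other Txnrd1 probes run on the minus strand, as the gene does in RefSeq (GRCr8). Over the array, 95.7% of 9791 probes that could be compared had the strand of their gene in RefSeq, and the share was 79.5% among 185 probes designed from tags or other such accessions. No exon or UTR annotation of the rn3 build was used here.

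The scanner software marks whether a spot is well above its local background, and by this mark the 9 genes fell into 2 sets. Nfe2l2, Keap1, Hmox1 and the Txnrd1 probe A_44_P456738 were above background on all 35 arrays, and no member probe was saturated. The Gclm probe (modifier subunit of glutamate-cysteine ligase) was not well above background on any array. Gclc, the catalytic subunit of the same enzyme, and Slc7a11, the cystine importer that feeds it, were above background on 4 arrays each. These 4 arrays were those of a single slide, slide 3. Nqo1, a quinone reductase often used as the first readout of Nrf2, was above background on 14 arrays, of which 4 were on slide 3, 5 on slides 4 and 5, and 5 on the other slides. By group, Nqo1 was above background on 1 BPA250+genistein array, 2 BPA250+I3C arrays, 3 BPA250 arrays, 3 BPA25+genistein arrays, 2 BPA25+I3C arrays, 2 BPA25 arrays and 1 control array.

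**Figure D1:**
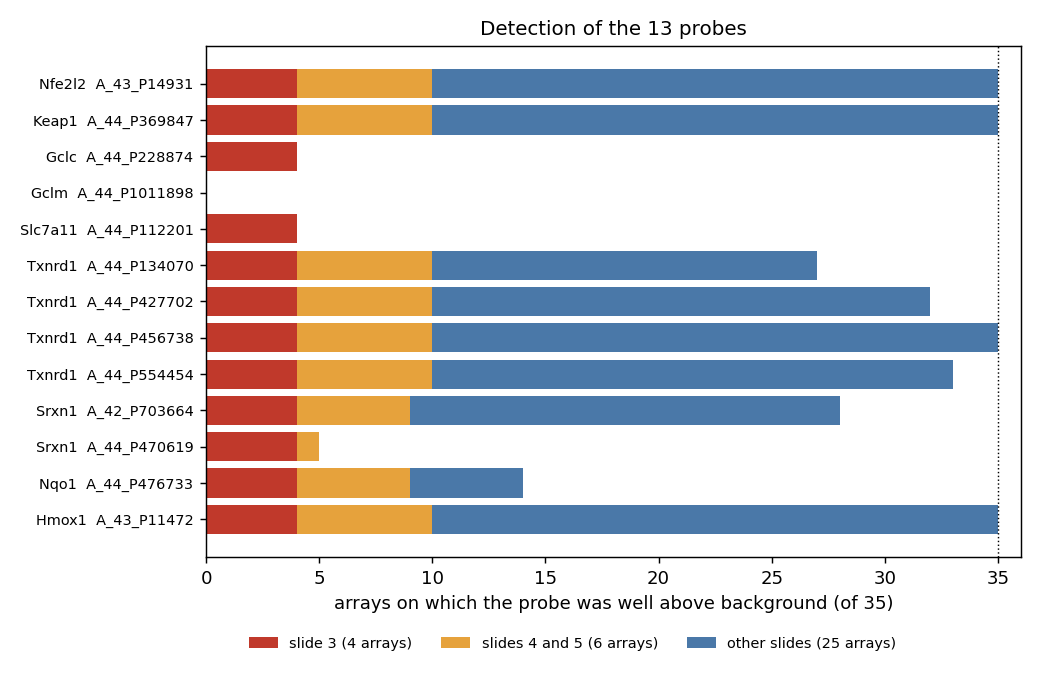
Number of arrays, of 35, on which each of the 13 probes was well above background, with the arrays of slide 3, of slides 4 and 5 and of the other slides in separate colours. The Gclm bar is empty, and the bars of Gclc and Slc7a11 hold only the 4 arrays of slide 3.

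A probe was tested when 1 group or more had it above background on 4 or all of its 5 arrays, which kept 8 of the 13 probes and 5 of the 9 genes, among 18996 probes kept in all. The tested genes were Nfe2l2, Keap1, Txnrd1 with all 4 probes, Srxn1 with A_42_P703664, and Hmox1. The glutathione branch (Gclc, Gclm and Slc7a11), Nqo1 and the second Srxn1 probe gave no level that could be compared, and no fold change is given for them. Whether these genes were expressed at a low level or their probes bound poorly was not tested.

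Levels are given as log2 of the processed signal minus the 75th percentile of all probes on the same array, a scale on which 1 unit is a 2-fold difference and on which levels of different probes cannot be set against each other. Arrays lay on 10 slides, and slide 3 stood apart from the rest, with 93.4 to 96.4% of all probes above background, against 65.2 to 72.2% on slides 4 and 5 and 31.9 to 49.8% on the others. Slide 3 held replicate 2 of the BPA250, BPA25+genistein, BPA25 and control groups and no array of the other groups. Results are therefore also given without slide 3 and with slide as a block. Of the tissue's markers, all 6 adipocyte genes on the array that were tested (with Adipoq and Plin1) were above background on all arrays. Of 7 luminal epithelial genes 4 were on the array, and they were above background on 35 (Cldn3), 30 (Cdh1), 30 (Epcam) and 9 (Elf5) arrays. Of 6 basal genes 3 were on the array, above background on 26 (Oxtr), 25 (Trp63) and 4 (Krt14) arrays. The RNA is of whole gland, so fewer cells of a type and less RNA per cell cannot be told apart.

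No member gene differed between groups by limma's moderated test with Benjamini-Hochberg adjustment over the 18996 tested probes. For BPA250+genistein against BPA250 glands 0 of the 5 tested genes passed, where 0% of all tested probes did, and 4.16% had an unadjusted p under 0.05. For BPA250+I3C against BPA250 the count was 0 of 5, with 0% of all probes adjusted and 4.17% unadjusted. For BPA25+genistein against BPA25 it was 0 of 5, with 0.00526% and 4.8% of all probes. For BPA25+I3C against BPA25 it was 0 of 5, with 0.0105% and 4.31%. Against the control group, 0 of 5 genes passed for BPA250+genistein (0% of all probes adjusted, 4.2% unadjusted), BPA250+I3C (0% and 3.6%), BPA25+genistein (0% and 1.71%), BPA25+I3C (0% and 1.55%), BPA250 (0% and 0.963%) and BPA25 (0% and 1.97%). For BPA250 against BPA25 it was also 0 of 5 (0% and 1.67%). The F test over the 7 groups called 0 of 5 genes (0% of all probes adjusted, 4.05% unadjusted), with an adjusted p of 1.00 for each of the 8 member probes.

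These 11 comparisons made 88 tests on the 8 member probes, of which 1 had an unadjusted p under 0.05, and the smallest adjusted p was 0.776. The fitted differences were at most 0.68 in size on the log2 scale. Their 95% intervals reached from -1.45 to 1.58, and 59 of the 88 intervals lay wholly between -1 and 1, so a 2-fold change in either direction was outside them. The other intervals left room for a 2-fold change. All intervals of Keap1 and Hmox1 lay inside those limits (11 of 11 each), as did 10 of 11 for Txnrd1 A_44_P456738, but only 4 of 11 for Nfe2l2 and 1 of 11 for Srxn1. These intervals are of the fit without slide, so their width includes the spread between slides. With slide as a block the Nfe2l2 differences ran from -0.25 to 0.24, with an SE of 0.17 to 0.19.

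**Figure D2:**
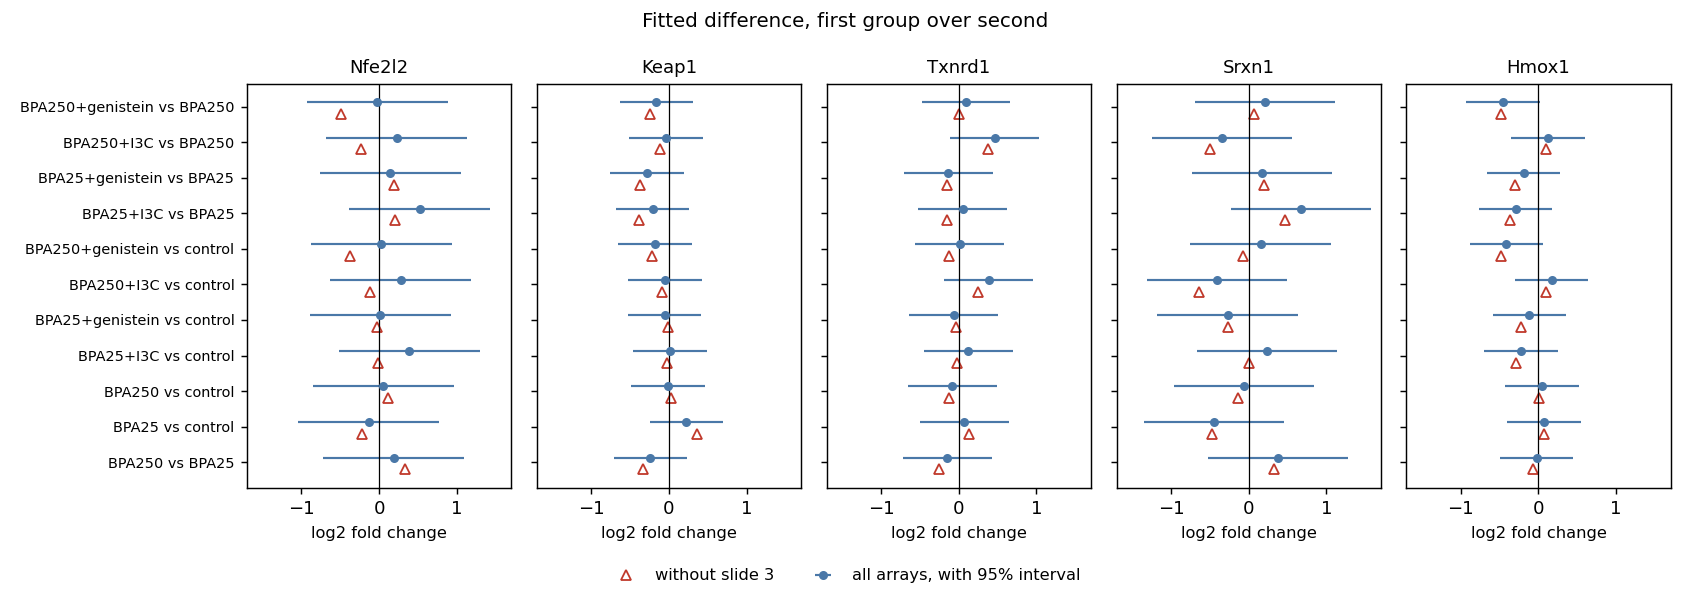
Fitted log2 fold change (x axis, first group over second) of the brightest probe of each tested gene in the 11 comparisons (rows), with 95% intervals as bars and the estimate without slide 3 as open triangles. The Hmox1 and Keap1 bars are short and stay within 1 unit of 0, and the Nfe2l2 estimates move by up to 0.46 when slide 3 is left out.

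Nfe2l2 was the member that followed the slide most closely. On slide 3 its level was 0.26 in the BPA250 gland, 0.62 in the BPA25+genistein gland, 0.68 in the BPA25 gland and 0.46 in the control gland. On all other slides it lay between 1.28 and 2.85. The slide 3 arrays were thus the lowest of their groups in all 4 cases. The mean on slide 3 minus that of the other arrays was -1.85, while the median tested probe of the array was shifted by -0.91, and 9.18% of tested probes were shifted as far down or further. Before scaling, the Nfe2l2 signal of slide 3 (517 to 1345 intensity units) lay within the range of the other slides (190 to 1374), whereas the 75th percentile of slide 3 arrays was 375 to 876 units, against 30.4 to 338 units elsewhere. Slide membership accounted for 91.9% of the variance of Nfe2l2 over the 35 arrays and group for 6.16%, and without slide 3 the shares were 66.3% and 20.4%. The medians over all tested probes were 64.4% for slide and 12.9% for group. Slides and groups are not balanced, so these shares overlap.

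By group, Nfe2l2 averaged 2.08 ± 0.55 in BPA250+genistein, 2.34 ± 0.22 in BPA250+I3C, 2.11 ± 1.07 in BPA250, 2.07 ± 0.82 in BPA25+genistein, 2.44 ± 0.46 in BPA25+I3C, 1.92 ± 0.70 in BPA25 and 2.06 ± 0.90 in control glands (SD, n = 5 each). In BPA25+I3C glands its level was 2.44, 1.66, 2.59, 2.85 and 2.68, against 2.25, 0.68, 2.16, 2.39 and 2.13 in BPA25 glands. The ranges overlapped, and the lowest BPA25 value was the array of slide 3. The difference of 0.52 ± 0.45 (SE, adjusted p = 0.999) was the furthest from 0 for this gene, and it came to 0.21 without slide 3 and 0.24 ± 0.19 with slide as a block. On slide 9, the only slide with a gland of each, it was 0.72. For BPA250+genistein against BPA250 the difference was -0.02 with all arrays and -0.49 without slide 3 (adjusted p = 0.381), so its size rested on the 1 BPA250 array of that slide. Within slides it was -0.14 on slide 5 and -0.05 on slide 10. With slide as a block the SE of Nfe2l2 was 0.17 to 0.19 in all 11 comparisons, against 0.45 without it, and no adjusted p was below 0.459.

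Keap1, the adaptor that binds Nrf2, averaged 0.55 ± 0.32 in BPA250+genistein, 0.68 ± 0.21 in BPA250+I3C, 0.72 ± 0.38 in BPA250, 0.67 ± 0.24 in BPA25+genistein, 0.74 ± 0.18 in BPA25+I3C, 0.95 ± 0.52 in BPA25 and 0.73 ± 0.13 in control glands (SD, n = 5 each). The BPA25 group had the highest mean and the widest spread, with 1.65, 0.26, 1.14, 1.04 and 0.68, against 0.72, 0.58, 0.94, 0.72 and 0.70 in control glands. The control values all lay inside the range of the BPA25 values. The difference was 0.22 ± 0.23 (SE, adjusted p = 1.00) and 0.36 without slide 3. Over the 11 comparisons Keap1 differences ran from -0.28 to 0.22, and no neighbours in the order of group means differed beyond their spread.

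Txnrd1, the cytosolic reductase that recycles thioredoxin with NADPH, had its highest mean in the BPA250+I3C group, at 0.81 ± 0.37 for the brightest probe A_44_P456738 (SD, n = 5). It averaged 0.44 ± 0.30 in BPA250+genistein, 0.35 ± 0.23 in BPA250, 0.36 ± 0.56 in BPA25+genistein, 0.55 ± 0.43 in BPA25+I3C, 0.50 ± 0.53 in BPA25 and 0.43 ± 0.36 in control glands. The BPA250+I3C glands had levels of 0.95, 1.27, 0.50, 0.97 and 0.38, against 0.39, -0.01, 0.41, 0.62 and 0.33 in BPA250 glands. The groups overlapped, with 3 BPA250+I3C glands above all BPA250 glands. The difference was 0.46 ± 0.28 (SE, adjusted p = 0.776), and it was 0.37 without slide 3, 0.24 with slide as a block and 0.56 within slide 1, the only slide with a gland of each. The other probes of the gene gave 0.37 ± 0.30 for A_44_P427702, 0.42 ± 0.30 for A_44_P554454 and 0.08 ± 0.42 for A_44_P134070, whose fit lacked 1 BPA250 value. All 4 were above 0, and none passed (adjusted p of 0.776 to 0.943). The median of all tested probes in the same comparison was 0.23, and on other scalings this median and the Txnrd1 difference moved together. It was -0.19 with a Txnrd1 difference of 0.05 when arrays were centred on the probes detected everywhere, and 0.58 with 0.82 when they were centred on their median.

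The single unadjusted p under 0.05 also belonged to Txnrd1 and came from 1 probe. For A_44_P554454 the BPA25+genistein glands had -0.17, -0.98, -0.20, -2.30 and -0.39, against -0.16, -0.51, -0.01, 0.17 and -0.21 in BPA25 glands. The value of -2.30 in replicate 4 lay far below the rest, and on that array the probe was not well above background. The difference was -0.66 ± 0.30 (SE, unadjusted p = 0.0338, adjusted p = 0.983), and it was -0.29 without that array. In the same comparison the brightest probe gave -0.14 ± 0.28, A_44_P134070 gave -0.14 ± 0.39 and A_44_P427702 gave 0.45 ± 0.30. Of the Txnrd1 probes only the plus-strand probe A_44_P427702 was thus above 0. On the array with -2.30, the brightest probe read 0.09.

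Whether the 4 Txnrd1 probes followed each other from gland to gland was measured after the mean of each slide had been subtracted, over the 34 arrays that shared a slide with another. The pair A_44_P456738 and A_44_P554454 did, with Pearson's r = 0.455 and Spearman's rho = 0.573 (permutation p = 0.00392 and 0.00201 within slides, adjusted 0.0235 and 0.0121 over the 6 Txnrd1 pairs, r = 0.483 without the 2 farthest arrays). None of the other 5 pairs passed. The plus-strand probe A_44_P427702 had r = 0.283, 0.00462 and -0.109 with the other 3 (adjusted p of 0.583, 0.987 and 0.933).

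Srxn1, sulfiredoxin, repairs overoxidised peroxiredoxins. Its probe A_42_P703664 was above background on 28 arrays and averaged -0.73 ± 0.95 in BPA250+genistein, -1.29 ± 0.69 in BPA250+I3C, -0.94 ± 0.64 in BPA250, -1.16 ± 0.90 in BPA25+genistein, -0.65 ± 0.23 in BPA25+I3C, -1.33 ± 0.82 in BPA25 and -0.89 ± 0.56 in control glands (SD, n = 5 each). BPA25+I3C glands had -0.34, -0.68, -0.63, -0.97 and -0.62, against -2.02, -2.15, -1.53, -0.36 and -0.58 in BPA25 glands. The BPA25+I3C values were close together and lay within the range of the BPA25 values except for the highest, and 3 BPA25 glands lay below all of them. The difference of 0.68 ± 0.44 (SE, adjusted p = 0.999) was the furthest from 0 among all 88 tests. It was 0.47 without slide 3 and 0.41 with slide as a block. On slide 9, the only slide with a gland of each, the BPA25+I3C minus BPA25 difference had the opposite sign, -0.40. At the higher BPA dose the I3C difference of Srxn1 was -0.34 ± 0.44, and -0.39 within slide 1. The direct test of the I3C difference at BPA250 minus that at BPA25 gave -1.02 ± 0.63 with a 95% interval of -2.30 to 0.25 (adjusted p = 1.00), so opposite effects were not shown. No member gene passed this test for I3C (0 of 5, 0% of all probes adjusted, 3.13% unadjusted) or for genistein (0 of 5, 0% adjusted, 1.25% unadjusted). The 2 Srxn1 probes could not be set against each other, because A_44_P470619 was above background on 5 arrays, 4 of them on slide 3.

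Hmox1, haem oxygenase 1, breaks haem down to biliverdin, carbon monoxide and iron. Of the members its variance lay most between groups, with 31.1% for group and 19.5% for slide. Over the 7 groups its moderated F test had an unadjusted p of 0.217, so a difference between groups was not shown. Its probe is spotted 10 times on each array, and the spots were averaged. Hmox1 averaged 0.33 ± 0.26 in BPA250+genistein, 0.92 ± 0.36 in BPA250+I3C, 0.79 ± 0.28 in BPA250, 0.63 ± 0.43 in BPA25+genistein, 0.52 ± 0.12 in BPA25+I3C, 0.82 ± 0.33 in BPA25 and 0.75 ± 0.28 in control glands (SD, n = 5 each). In BPA250+genistein glands it was 0.03, 0.47, 0.20, 0.70 and 0.26, against 0.39, 0.67, 0.79, 1.06 and 1.05 in BPA250 glands. The BPA250+genistein glands with 0.03, 0.20 and 0.26 lay below all BPA250 glands, and the ranges overlapped. The difference was -0.46 ± 0.23 with a 95% interval of -0.93 to 0.01 (SE, unadjusted p = 0.0570, adjusted p = 1.00). Within slides the BPA250+genistein minus BPA250 difference was -0.59 on slide 5 and -0.79 on slide 10, which were the slides with a gland of each. The difference was -0.54 with slide as a block (unadjusted p = 0.0272, adjusted p = 0.221) and -0.49 without slide 3 (unadjusted p = 0.0393, adjusted p = 0.356). The arrays of these groups were also paired by replicate number, and arrays of the same number were scanned on the same day. The paired differences were -0.36, -0.20, -0.59, -0.36 and -0.79, from the same arrays as the fits above. They were below 0 in 5 of 5 pairs. The share of all tested probes with every pair of the same sign is not given here. The differences of replicates 3 and 5 are those of slides 5 and 10 already given. Whether the pairs reflect more than the scan day was not tested. The fit with the replicate number as a block gave -0.46 ± 0.22 (SE, unadjusted p = 0.0465, adjusted p = 0.583 by limma), so no call changed.

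Against the control group the BPA250+genistein difference of Hmox1 was -0.41 ± 0.23 (SE, unadjusted p = 0.0849, adjusted p = 0.999). The comparison uses the same BPA250+genistein arrays as the one above. At the lower BPA dose genistein gave -0.19 ± 0.23 (adjusted p = 1.00), and the genistein difference at BPA250 minus that at BPA25 was -0.27 ± 0.33 with a 95% interval of -0.94 to 0.40. I3C gave -0.29 ± 0.23 at the lower BPA dose and 0.12 ± 0.23 at the higher one, neither past the threshold (adjusted p of 0.999 and 0.842). Of 8 skeletal muscle markers 7 were tested. Their mean level was -2.17 to 1.87 in BPA250+genistein, -0.99 to 2.20 in BPA250, -2.25 to 2.20 in BPA250+I3C and 2.77 to 5.48 in control glands. None of these BPA250 groups overlapped the control group. All 7 T cell markers were on the array and 4 were tested. Their mean level was 0.36 to 2.00 in BPA250+genistein glands, against -1.78 to 0.25 in BPA250 glands, with no overlap. Of 6 basal epithelial markers 3 were on the array and 2 were tested. They averaged -1.79 ± 0.79 in BPA250+genistein glands and -0.65 ± 0.19 in BPA250 glands (SD, n = 5 each), with overlapping ranges. The ranges of BPA250+genistein and BPA250 glands overlapped for all of the 10 lists but the T cell list. The share of all tested probes without overlap in these comparisons is not given here. The part of these cell types in the Hmox1 differences was not tested. Hmox1 and the mean muscle level had r = 0.132 over 34 slide-centred arrays (rho = 0.160, permutation p = 0.547, adjusted p = 0.902 over 50 pairs of 5 genes with 10 marker lists). It had r = -0.159 with the T cell list (rho = -0.152, permutation p = 0.439, adjusted p = 0.902) and r = 0.330 with the basal list (rho = 0.265, permutation p = 0.0952, adjusted p = 0.529). The smallest adjusted p among these 50 pairs was 0.141, for Keap1 with the muscle list (r = 0.445) and with the adipocyte list (r = 0.583).

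**Figure D3:**
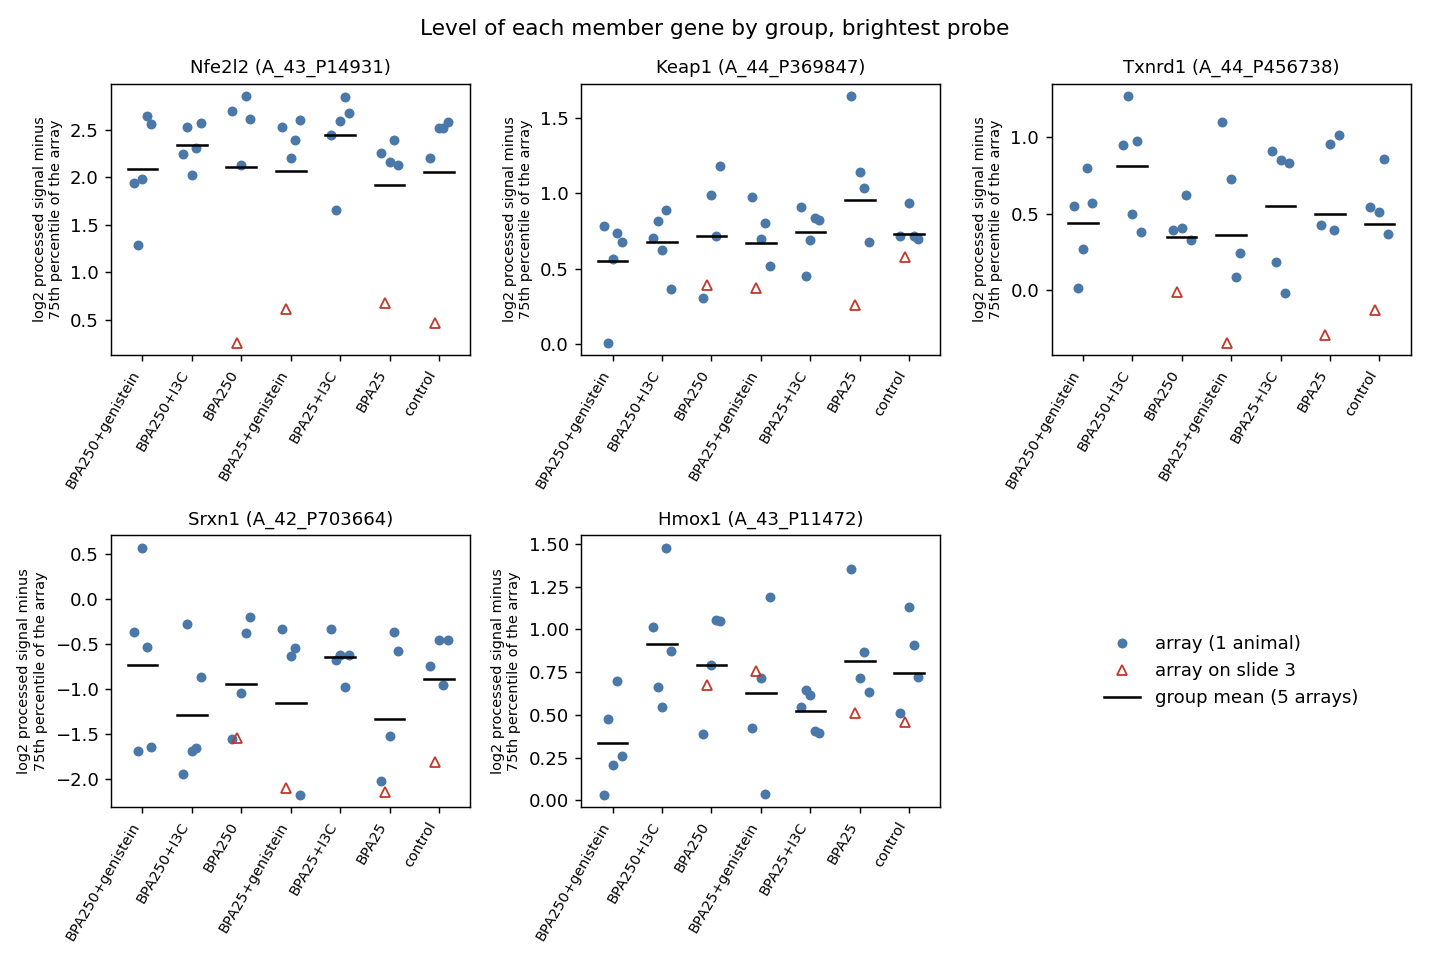
Level of the brightest probe of each tested gene (y axis, log2 processed signal minus the 75th percentile of the array) in the 7 groups (x axis, 5 arrays each), with arrays of slide 3 as open triangles and group means as bars. The Nfe2l2 triangles lie below 0.7 and all circles above 1.2, whereas Hmox1 triangles lie among the circles and its BPA250+genistein mean of 0.33 is the lowest.

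The wider pathway was read from a list of 42 further genes of Nrf2 control, glutathione use, thioredoxin, NADPH supply, conjugation and iron handling, of which 39 were on the array and 31 were tested. None passed in any of the 11 comparisons. Across them 5 tests had an unadjusted p under 0.05, where 0.963% to 4.8% of all tested probes did in single comparisons. The share of all tested probes that were higher or lower is not given here, so the counts below cannot be set against it. In BPA250+I3C against BPA250 glands 28 of the 31 were higher. Of these 3 had an unadjusted p under 0.05, where 4.17% of all tested probes had one. The median difference of the list was 0.38, against 0.23 for all tested probes. Without slide 3 the medians were 0.09 and 0.03. The smallest p in that comparison was of Prdx1, a peroxiredoxin, at 4.48 ± 0.45 in BPA250+I3C and 3.42 ± 1.03 in BPA250 glands (SD, n = 5 each), a difference of 1.06 ± 0.46 (SE, adjusted p = 0.776) that was 0.62 without slide 3. In BPA250+I3C against control glands, with the BPA250+I3C arrays shared between both comparisons, 28 of 31 were higher, and the medians were 0.32 for the list and 0.19 for all tested probes (0.03 and 0.02 without slide 3). In BPA25+genistein against BPA25 glands 24 of 31 were lower, with a median of -0.15 for the list and 0.03 for all tested probes (-0.10 and 0.06 without slide 3), and the smallest p was of the glutathione transferase Gstm1, at 0.43 ± 0.50 in BPA25+genistein against 1.13 ± 0.55 in BPA25 glands (adjusted p = 0.983). In BPA25 against control glands 25 of 31 were higher, with medians of 0.11 for the list and 0.02 for all tested probes (0.13 and -0.02 without slide 3). In BPA250 against BPA25 glands 27 of 31 were lower, with medians of -0.11 and -0.04 (-0.07 and 0.01 without slide 3), and in BPA250 against control glands 22 of 31 were lower, with medians of -0.04 and -0.03. For BPA25+I3C 22 of 31 were higher than in BPA25 glands, with medians of 0.07 and 0.12 (-0.17 and -0.03 without slide 3), and 26 of 31 higher than in control glands, with medians of 0.22 and 0.13 (-0.09 and -0.06). The medians of both BPA25+I3C comparisons thus changed sign without slide 3. The remaining counts of higher genes, 19 of 31 for BPA250+genistein against BPA250, 17 for BPA250+genistein against control and 14 for BPA25+genistein against control, were nearer to even, and their medians also changed sign without slide 3 (0.04, 0.02 and -0.06 with it, against -0.25, -0.25 and 0.02 without it). The thioredoxin gene itself and the NADPH source Me1 were above background on all 35 arrays but missed too many values, through spots marked as outliers, to be tested.

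The tested members were not shown to vary together from gland to gland once the slide was taken into account. Across the 34 arrays as measured, Nfe2l2 and Txnrd1 had r = 0.615. After the slide mean was subtracted r was 0.0211 and rho 0.0652 (permutation p = 0.928 and 0.747, adjusted p = 0.987 over 10 pairs and 0.963, r = 0.0929 without the 2 farthest arrays and 0.0808 without slide 3). Likewise Nfe2l2 and Keap1 had r = 0.456 as measured and -0.0121 within slides. The furthest from 0 within slides was Keap1 with Hmox1, at r = 0.388 and rho = 0.313 (permutation p = 0.0751, adjusted p = 0.599), and it came to 0.166 without the 2 farthest arrays. None of the 10 pairs of genes passed. Among the probes of Txnrd1 itself only A_44_P456738 with A_44_P554454 passed by this measure, so links between genes could have been missed.

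**Figure D4:**
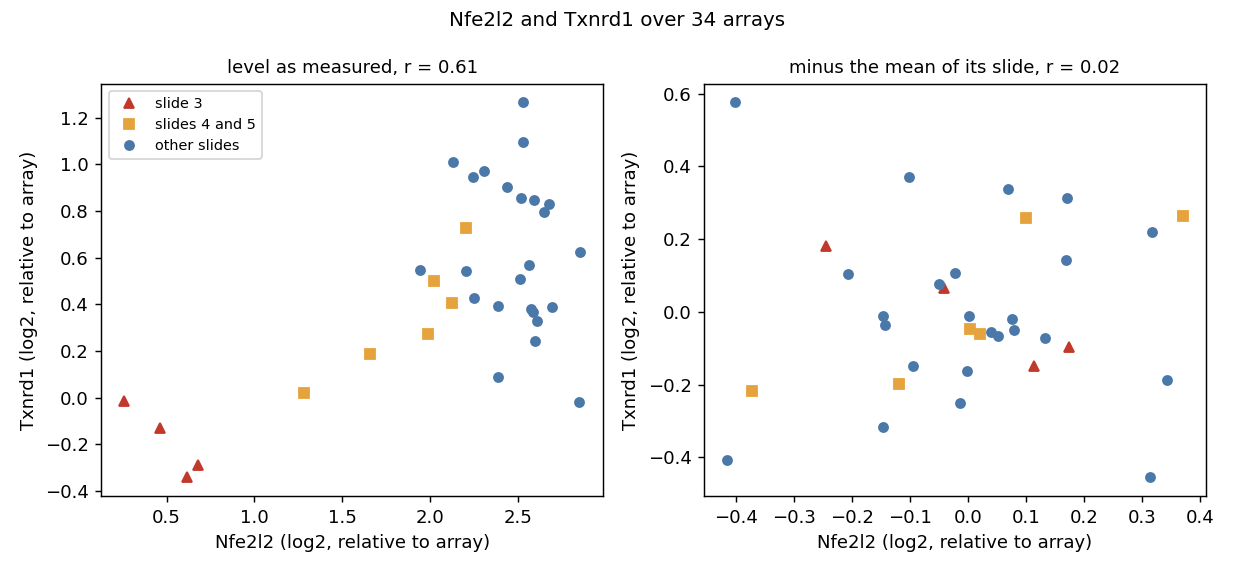
Level of Nfe2l2 (x axis) against Txnrd1 (y axis) on 34 arrays, as measured on the left and after subtraction of the mean of each slide on the right, with marks by slide. On the left the 4 arrays of slide 3 sit apart at the lower left and r is 0.61, and on the right they lie among the others and r is 0.02.

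The probes that followed each member most closely were looked up among 10928 named probes, by Pearson's r over the same slide-centred arrays, as a description with no test. Hmox1 lay closest to Pcna, the sliding clamp of DNA replication (r = 0.823), and to Kpna2, a nuclear import factor (r = 0.816), and without slide 3 these were 0.848 and 0.862. Keap1 lay closest to Ptdss2 (0.848) and Asl (0.826), and Nfe2l2 to RGD1560600 (0.832) and RGD1311283 (0.827). The nearest to Txnrd1 were the histone gene Hist1h2bn (0.680) and Pdap1 (0.649), and to Srxn1 Col9a1 (0.717) and RGD1309926 (0.675). No member gene was among the 2 nearest to another.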

How the data were processed

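Each array was deposited by the authors as spot-level output of Agilent Feature Extraction 9.5.3.1, per the submitters' processing notes. Per the file headers, the processed signal is an intensity after background subtraction and detrending, the mean signal and its local background are uncorrected intensities, and 0 or 1 flags (other) mark saturated, outlying and well-above-background spots. The authors' deposited table holds normalised log2 values with medians of 6.55 to 6.58 per array, by a method not given in the sources used here. The input to labelling was 150 ng of RNA, per the labels.

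Processed signals were taken to log2, centred on each array's 75th percentile, and averaged per probe after outlying spots were set to missing. Control spots (1639) were left out. Probes missing more than 5 values were dropped. A model with 7 group means over all 35 arrays was fitted in limma (version 3.58.1, R version 4.3.3, data.table version 1.17.8), with Benjamini-Hochberg adjustment and a threshold of 0.05. Correlations used 1e+05 permutations within slides. The brightest probe stood for its gene. On data simulated for BPA25 against control, with 18996 probes of which 200 were changed by 2 log2 units, the fit recovered 74% and made 3 false calls. Smaller changes, such as the member differences of at most 0.68, were not simulated. Array number limits the precision. The members and lists were chosen with earlier results of these data known, and members, their probes and, from the wider list, the gene of smallest p in a comparison were the ones named, of which 1 is not reported here. Replicate numbers in the labels were checked as pairs: every pair correlated above 0.1 for BPA250+genistein with BPA250 (r of 0.232 to 0.659) and BPA25 with control (0.135 to 0.896), and in no other comparison.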

Additional observations from a re-analysis of the deposited data

Results flagged for a closer look

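Of 56 sets of 4 or 5 values (8 probes in 7 groups), 9 held a value far from the other arrays of its group by Dixon's criterion, which chance meets in about 1 of 20. Nfe2l2 gave 4 of them, each the array on slide 3. It was 0.26 in the BPA250 gland (others 2.13 to 2.85), 0.62 in the BPA25+genistein gland (others 2.20 to 2.60), 0.68 in the BPA25 gland (others 2.13 to 2.39) and 0.46 in the control gland (others 2.20 to 2.58).

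Keap1 was 0.00547 in BPA250+genistein replicate 2, on slide 4, with the others at 0.56 to 0.79. The plus-strand Txnrd1 probe A_44_P427702 gave 3 such values. They were 0.88 in BPA250+I3C replicate 2 (others -0.21 to -0.02), 0.17 in BPA250 replicate 4 (others -0.49 to -0.30) and -1.37 in BPA25 replicate 1 (others -0.54 to -0.26). The Txnrd1 probe A_44_P134070 was -0.998 in BPA250 replicate 3, with the other 3 measured arrays at -2.04 to -1.94.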

How the results depend on the processing

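The count of member genes past an adjusted p of 0.05 was 0 in every comparison under all alternatives run: 27 settings for each comparison of 2 groups, 52 for the F test and 37 for each difference between BPA doses, leaving out single arrays included. At an unadjusted p under 0.05 the count ran from 0 to 2 genes. The shares of all probes called, given beside those counts, were less stable: with array weights 971 probes were called for BPA25+I3C against BPA25 (2 as reported), 254 for BPA250+genistein against BPA250 (0 as reported) and 1146 by the F test (0 as reported), and with slide as a random block the last 2 counts were 84 and 160. Alternatives were other centrings, quantile and normexp normalisation, the authors' deposited log2 table, other filters on dim probes, outlying spots kept, slide or scan day as a block, array weights, 1 probe per gene and, chosen after seeing the data, leaving out slides 3, 4 and 5. The replicate block left the count of called members at 0 in every comparison, including both in which every pair correlated above 0.1.

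Fold changes of single genes moved by more than the spread between replicates in 7 of 55 cases when centred on probes detected on all arrays, in 8 of 55 when centred on the array median, and in 1 of 55 with slide as a fixed block, where Txnrd1 in BPA250+genistein against BPA250 was -0.20, against 0.09 as reported. Leaving out 1 array moved none of 550 values by more than that spread, and 78 changed sign, none of them called. Hmox1 in BPA250+genistein against BPA250 stayed below 0 in all settings, between -0.65 and -0.35. This was not particular to Hmox1, since all settings refit the same arrays. Keap1 in the same comparison also stayed below 0 (-0.37 to -0.0009), and Srxn1 in BPA250 against BPA25 stayed above 0 (0.14 to 0.62).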
